A study of Mus musculus with 3 samples.

Results

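The cells described here are the patrolling Treml4 Ace monocytes of the irradiated mouse lung, 690 of 19622 cells in 3 single-cell RNA-seq libraries. A cell was a member when at least 3 of 6 genes (Treml4, Ace, Cd300e, Adgre4, Spn and Plac8) were above 0, at most 1 of C1qa, C1qb and C1qc was above 0, and none of Cd3e, Cd79a, Ncr1, S100a8, Epcam and Cdh5 was above 0. The CONV library held 49 of them among 6372 cells, the CONV AsiDNA library 272 among 6983 and the FLASH library 369 among 6267. Each library came from the whole lung of 1 wild-type (WT) female C57BL6/J mouse, collected 5 months after a 13 Gy irradiation of the thorax. CONV is conventional-dose-rate radiotherapy, FLASH delivers the dose at an ultra-high dose rate, and CONV AsiDNA is conventional irradiation at the end of 3 days of intraperitoneal AsiDNA, a DNA decoy that mimics double-strand breaks, given at 100 mg/kg on the first days and 200 mg/kg on the last. All 3 mice were irradiated, and no non-irradiated lung is part of the comparison. Since each condition is 1 mouse, a difference between libraries cannot be told apart from a difference between mice, no test was possible, and the intervals below cover the sampling of cells only.

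Patrolling, or non-classical, monocytes crawl along the inner surface of small blood vessels and survey the endothelium. They arise largely from classical Ly6c-high monocytes under the control of the nuclear receptor Nr4a1, depend on the chemokine receptor Cx3cr1 for survival, and are abundant in the lung's capillary bed. They carry the receptor Treml4, the angiotensin-converting enzyme Ace, the activating receptor Cd300e, the adhesion G-protein-coupled receptor Adgre4 and the sialoglycoprotein CD43, the product of Spn.

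Patrolling monocytes made up a lower share of the CONV library than of both others. They were 0.769% of CONV cells (95% exact interval 0.569 to 1.02%), 3.90% of CONV AsiDNA cells (3.45 to 4.38%) and 5.89% of FLASH cells (5.32 to 6.50%). The 3 intervals did not overlap, and the CONV share was the lowest under each form of the rule that was tried. Among the cells with the immune signalling adaptor Tyrobp above 0 the shares were 2.37%, 11.3% and 18.0% in the same order. Other myeloid cells differed as well, with cDC2 at 50, 158 and 120 cells and interstitial macrophages at 384, 402 and 298.

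**Figure D1:**
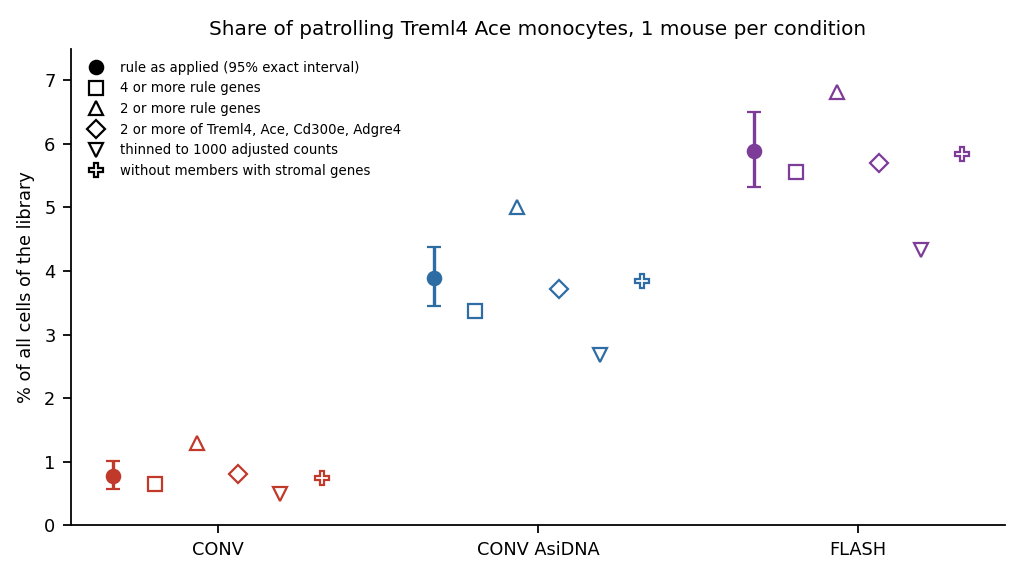
Share of patrolling Treml4 Ace monocytes among all cells of each library, in percent, for the rule as applied (filled circles, with 95% exact intervals) and for 5 other forms of it (open symbols). The CONV points lie between 0.487 and 1.29%, below every point of the other 2 libraries.

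Members and other cells were close in median total but not in genes detected. The median totals for CONV, CONV AsiDNA and FLASH were 3516, 3778 and 3733 adjusted counts per cell, against 3448, 3626 and 3578 in all other cells. The median number of genes per cell was 1482, 1596 and 1554 in members and 1231, 1314 and 1287 in other cells. An adjusted count is the whole number recovered from the deposited natural-log value. When every cell was thinned to 1000 adjusted counts before the rule was applied, the shares were 0.487%, 2.68% and 4.32%. The deposited totals were already close across libraries. Here and below, thinning therefore cannot show the part of the sequencing depth before the deposited adjustment, which was not tested. The libraries shared 9 to 17 cell barcodes in pairs, and no member's barcode was shared with a member of another library.

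Since the rule genes chose the cells, their values are a description. Adgre4 was above 0 in 85.7% of CONV members, 91.9% of CONV AsiDNA members and 94.9% of FLASH members, against 0.254 to 1.01% of all other cells. Treml4 was above 0 in 85.7%, 83.5% and 87.3%, against 1.28 to 1.98% of other cells. Ace was above 0 in 89.8%, 90.1% and 95.1%, and Cd300e, the sparsest of the 6, in 59.2%, 60.3% and 64.0%. Plac8, a gene that classical monocytes also express, differed most between libraries, with levels of 1315, 2616 and 2896 for CONV, CONV AsiDNA and FLASH as adjusted counts per 1000000 (CPM). All 6 genes were above 0 in 15, 113 and 194 members of the libraries in that order (30.6%, 41.5% and 52.6%).

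The members just inside the threshold, with exactly 3 rule genes, numbered 8, 37 and 21, and the cells just outside it, with exactly 2, numbered 33, 78 and 58. Cx3cr1 was above 0 in 37.5%, 89.2% and 90.5% of the first and in 12.1%, 48.7% and 32.8% of the second. The edge of the rule therefore held fewer Cx3cr1-positive cells in CONV than in the other libraries. The exclusion genes removed 8, 20 and 12 cells that had 3 or more rule genes, most of them through the neutrophil gene S100a8 (5, 14 and 6 cells). C1qa, C1qb and C1qc were listed at 0 in each member, so the allowance of 1 of these macrophage genes was never used.

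Treml4 and Adgre4 both lie on chromosome 17 (GRCm38), Treml4 at 48264295 to 48275360 and Adgre4 at 55749984 to 55853662, on the plus strand. Their RefSeq promoter windows (GRCm38.p6, 250 bases before to 50 after the start) are shown because these genes mark the population most sharply. Capitals mark the letters GAGGAAGT on either strand, the core of the site bound by PU.1, the myeloid factor encoded by Spi1.
Treml4 (chr17:48264045-48264344, plus strand): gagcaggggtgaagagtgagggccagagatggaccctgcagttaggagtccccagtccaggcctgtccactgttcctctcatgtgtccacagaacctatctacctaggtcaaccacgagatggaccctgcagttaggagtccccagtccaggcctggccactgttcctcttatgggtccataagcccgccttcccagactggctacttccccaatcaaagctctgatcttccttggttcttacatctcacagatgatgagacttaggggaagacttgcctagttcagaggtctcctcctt
Adgre4 (chr17:55749734-55750033, plus strand): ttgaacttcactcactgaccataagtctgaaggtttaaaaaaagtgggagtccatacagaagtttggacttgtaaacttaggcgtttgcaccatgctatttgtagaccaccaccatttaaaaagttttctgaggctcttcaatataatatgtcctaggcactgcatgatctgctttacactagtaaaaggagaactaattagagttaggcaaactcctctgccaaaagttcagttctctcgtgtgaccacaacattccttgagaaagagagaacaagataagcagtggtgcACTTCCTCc
Adgre4 held 1 match, on the minus strand, and Treml4 held none of these letters in this window. Of 30 rule and identity genes, 23 had a promoter in the table and 3 held a match (Adgre4, Dusp5 and Fcgr4), while 3.20% of all 32851 promoters did. Spi1 itself was above 0 in 93.9%, 94.9% and 97.3% of members.

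Genes outside the rule that mark patrolling monocytes were high in the members of all 3 libraries. Nr4a1 stood at 3122 CPM in CONV members, 3573 in CONV AsiDNA members and 3240 in FLASH members, against 385, 351 and 231 in all other cells, and was above 0 in 48 of 49, 270 of 272 and 368 of 369 members. Cebpb, a C/EBP factor needed by these monocytes, stood at 4373, 4603 and 4706 CPM. The B-cell and myeloid factor Pou2f2 stood at 1479, 2158 and 2081 CPM. Csf1r, the receptor for the growth factor CSF1, stood at 1017, 1218 and 1313 CPM and Itgal, the LFA-1 chain used for crawling on endothelium, at 1625, 2019 and 2069 CPM. Cx3cr1 was above 0 in 75.5% of CONV members (61.1 to 86.7%), 90.1% of CONV AsiDNA members (85.9 to 93.4%) and 92.1% of FLASH members (88.9 to 94.7%). After thinning, these Cx3cr1 shares were 46.9%, 54.0% and 58.0%, with overlapping intervals.

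**Figure D2:**
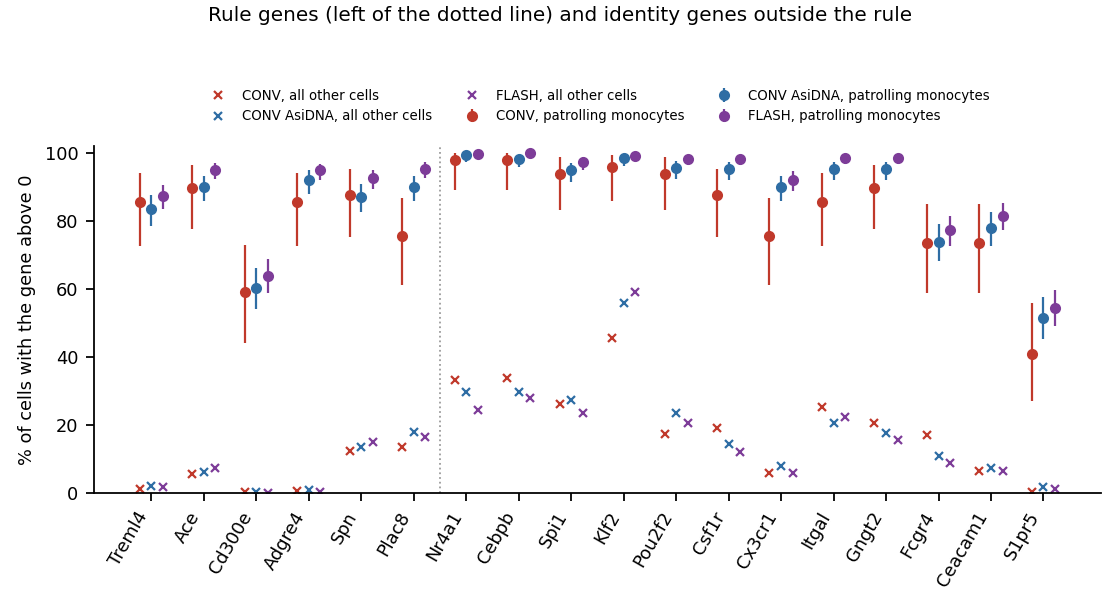
Percent of cells with each gene above 0 for the 6 rule genes and 12 identity genes outside the rule, in patrolling monocytes (circles, with 95% exact intervals) and in all other cells of the same library (crosses). Nr4a1 was above 0 in 48 of 49, 270 of 272 and 368 of 369 members and in 24.5 to 33.2% of other cells.

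Among the 20 genes with the highest mean log2 ratio of members over all other cells, 4 were rule genes. The others included Apoc2, an apolipoprotein that activates lipoprotein lipase (777, 794 and 1026 CPM), the C-type lectin Clec4a1 (742, 999 and 1020 CPM), the glycolytic enzyme gene Eno3 (374, 257 and 364 CPM), and S1pr5, a sphingosine-1-phosphate receptor needed for patrolling monocytes to leave the bone marrow (193, 224 and 234 CPM). S1pr5 was above 0 in 40.8%, 51.5% and 54.5% of members and in 0.269%, 1.67% and 1.12% of other cells. Ms4a7, listed as an identity gene, was at 0 in each member. These ratios describe the rule and are no separate result.

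Markers of other cell types were at 0 in members to differing degrees. Of 16 T and NK cell genes, 15 were listed at 0 in the members of all libraries, as were 11 of 11 platelet and erythroid genes, 8 of 10 alveolar macrophage genes and 8 of 10 neutrophil genes. Fewer were at 0 for epithelium (6 of 10), B cells (4 of 8), dendritic cells (5 of 13) and endothelium (4 of 12), the B-cell and dendritic lists summing to at most 11.7 and 50.3 CPM and the endothelial list to 135, 142 and 197 CPM. Those above 0 included Csf3r and Mmp8 of the neutrophil list, 1 or both above 0 in 12, 73 and 126 members, Pecam1 of the endothelial list, and Hopx and Napsa of the epithelial list (summed level 725, 609 and 811 CPM). Summed over the alveolar macrophage list, members held 0, 0 and 7.31 CPM. Of 12 interstitial macrophage genes, 8 were at 0 in all libraries, and the summed level (3426, 3453 and 3774 CPM) lay mainly in the lipid carrier Apoe. The stromal set was 14 stromal genes such as the matrix genes Mgp, Dcn and Bgn, a list drawn up after the values were seen. At least 3 of them were above 0 in 2 CONV members, 4 CONV AsiDNA members and 3 FLASH members, and Tyrobp was at 0 in these 9 cells. The list's summed level was 3110 CPM for CONV members and 610 and 107 CPM for the others. Without these cells the shares of patrolling monocytes were 0.738%, 3.84% and 5.84%.

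Gene levels were compared between libraries as log2 ratios of CPM with 10 added, over 3198 genes with a mean of at least 50 CPM in members. A gene was counted when it passed 2-fold. The CONV members differed from both others at more genes than the others did from each other. Between CONV and CONV AsiDNA 259 genes (8.1%) passed 2-fold, 125 higher in CONV (3.91%) and 134 lower (4.19%). Between CONV and FLASH 289 passed (9.04%), 157 higher in CONV (4.91%) and 132 lower (4.13%). Between CONV AsiDNA and FLASH 45 passed (1.41%), 31 higher in CONV AsiDNA (0.969%) and 14 lower (0.438%). The CONV sum rested on 171057 adjusted counts in 49 cells, the others on 1034065 and 1368874, and the part of this difference in depth in the counts was not tested. Among all other cells, which are many in each library, 0.625%, 1.09% and 0.188% of the same genes passed 2-fold. In cDC2 (dendritic cells with at least 3 of Cd209a, Clec10a, Flt3, Mgl2, Ccl17 and Zbtb46), which were 50, 158 and 120 cells, 12.5%, 10.7% and 4.57% passed, so that a higher share with CONV was not seen in members alone. In interstitial macrophages, at 384, 402 and 298 cells, 2.22%, 3.63% and 1.69% passed. The first and second comparisons share the CONV library.

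Some of the genes known to respond to glucocorticoids stood higher in CONV members than in the other members. Of 16 such genes 10 were compared, and 4 passed 2-fold above CONV AsiDNA (beside 3.91% of all genes) and none below. Against FLASH 2 passed above (beside 4.91%) and none below. In each of these comparisons 7 of the 10 had a log2 ratio above 0 and 3 below. The list's median log2 ratio was 0.76 and 0.59, beside 0.04 and 0.06 over all genes compared. Between CONV AsiDNA and FLASH none passed above, 2 passed below (Fkbp5 and Ddit4, beside 0.438% of all genes) and the median was -0.31.

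Fkbp5, a co-chaperone of the glucocorticoid receptor that the receptor itself induces, stood at 631 CPM in CONV members, 66.7 in CONV AsiDNA members and 186 in FLASH members. It was above 0 in 73.5% (58.9 to 85.0%), 19.9% (15.3 to 25.1%) and 44.4% (39.3 to 49.7%) of members, and after thinning in 40.8%, 6.25% and 16.3%. The 3 libraries thus held the order CONV, FLASH, CONV AsiDNA with intervals that did not overlap, before and after thinning. The log2 ratio was 3.06 over CONV AsiDNA and 1.71 over FLASH. Klf9, a zinc-finger factor, stood at 614, 188 and 233 CPM, in 73.5%, 39.7% and 46.6% of members. Ddit4, an inhibitor of mTOR signalling, stood at 438, 86.1 and 218 CPM. Its thinned share, 22.4% in CONV (11.8 to 36.6%), overlapped that in FLASH, 20.6% (16.6 to 25.1%). Zbtb16, encoding the factor PLZF, stood at 187, 71.6 and 123 CPM and Tsc22d3, encoding the glucocorticoid-induced leucine zipper, at 672, 375 and 332 CPM. The list did not move as one, since Sgk1, a kinase of ion transport, was lower in CONV at 158 CPM against 299 and 312, and Per1 stood at 93.5, 111 and 110 CPM.

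Some of these genes were also higher in other CONV cells, though not the list as a whole in each cell type. In all other cells Fkbp5 stood at 126, 58.6 and 80.4 CPM, and the list's median log2 ratio was 0.55 and 0.31 in the 2 comparisons with CONV. In cDC2 Fkbp5 stood at 205, 34.0 and 71.7 CPM. In interstitial macrophages, chosen by C1q genes, Fkbp5 was at 298, 161 and 303 CPM, with FLASH level with CONV. The summed level of the 10 genes was 7115, 4081 and 4894 CPM in members, 5633, 5300 and 6054 CPM in interstitial macrophages and 3158, 4555 and 4025 CPM in cDC2, where CONV was lowest. In all other cells it was 3147.5, 2325.9 and 2454.0 CPM, highest in CONV as in members. The mean number of the 10 genes above 0 per cell was highest in CONV in each of these, at 5.49, 4.45 and 5.11 in members, 4.596, 3.79 and 4.305 in interstitial macrophages and 3.12, 2.63 and 2.91 in cDC2. Klf9 stood at 280.5, 86.0 and 153 CPM in interstitial macrophages.

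**Figure D3:**
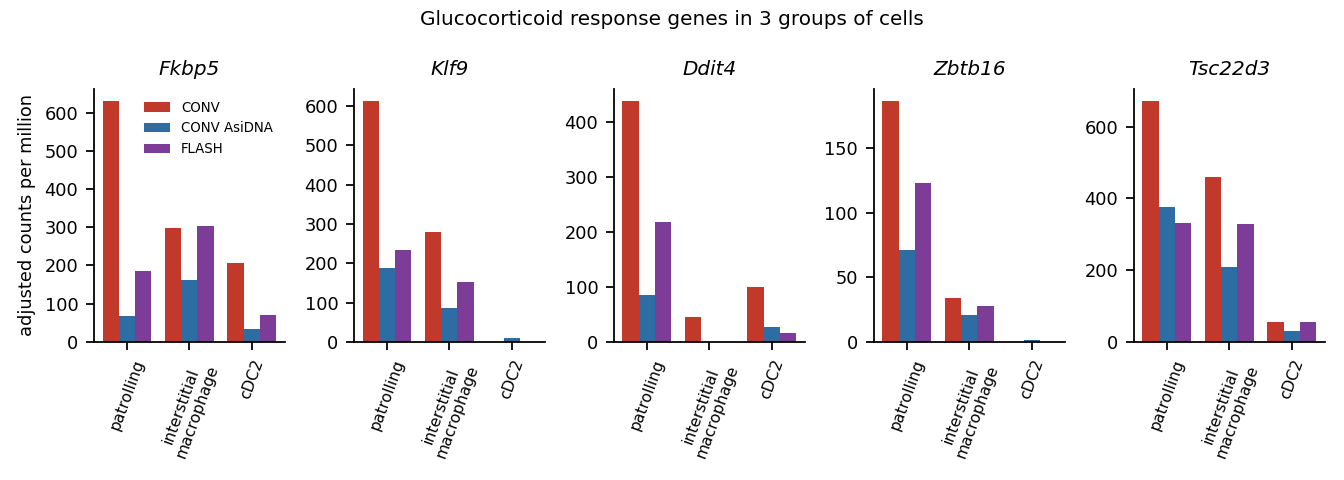
Levels of 5 glucocorticoid response genes in adjusted counts per 1000000 (CPM) in patrolling monocytes, interstitial macrophages and cDC2, 1 bar per library with no error bar since each is 1 mouse. The CONV bar is the tallest in patrolling monocytes for each gene shown (Fkbp5: 631, 66.7 and 186 CPM). Of all 10 genes compared, 3 had a log2 ratio below 0 in each comparison with CONV.

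The genes farthest above both other libraries in CONV were of several kinds. Ccnd2, cyclin D2 of the G1 phase, stood at 690, 71.6 and 4.38 CPM (log2 ratio 3.10 over CONV AsiDNA and 5.61 over FLASH). It was above 0 in 17 of 49 CONV members (34.7%), 28 CONV AsiDNA members (10.3%) and 4 FLASH members (1.08%). The median was 2 counts among the positive CONV members, and 2 cells with 53 and 31 counts held 84 of the 118 CONV counts. Both had exactly 3 rule genes and neither had Treml4 or Ace. With at least 4 rule genes the Ccnd2 log2 ratios were 1.59 over CONV AsiDNA and 4.09 over FLASH. The other genes above both libraries were the imprinted antisense RNA Kcnq1ot1, whose reads may mix with those of Kcnq1 (205, 28.0 and 7.31 CPM), mt-Nd4, a subunit of respiratory complex I (257, 8.70 and 38.7 CPM), Rgs1, a brake on G-protein signalling in leukocytes (245.5, 40.6 and 18.3 CPM), Tmem87b (164, 32.9 and 17.5 CPM), Rassf2 (111, 21.3 and 21.2 CPM) and the neutrophil chemokine Cxcl2 (380, 25.1 and 97.2 CPM). Cxcl2 was above 0 in only 5, 1 and 11 members. With at least 4 rule genes Rgs1 no longer passed 2-fold over CONV AsiDNA (log2 ratio 0.93, in place of 2.34) and was at 1.89 over FLASH, and Cxcl2 was at 2.55 and 1.23. Without the 5% of members with the highest totals Cxcl2 was at 3.08 over FLASH, in place of 1.86, and 1 FLASH cell held 82 counts. Tmem87b was the most widely detected of these, in 42.9%, 10.3% and 5.96% of members, and 14.3%, 4.41% and 1.63% after thinning.

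Gsn, Timp3 and Igfbp7 also ranked among them, through the members with stromal genes. Gsn, an actin-severing protein, stood at 362.5, 35.8 and 2.19 CPM and was above 0 in 2, 5 and 2 members. Without the members with stromal genes its log2 ratio over CONV AsiDNA was -0.14 and over FLASH -0.10. All 3 are on the stromal list by which these cells were found, so that their loss follows in part from the choice. Timp3, a metalloproteinase inhibitor, and Igfbp7, a secreted matrix-associated protein, were each above 0 in the same number of CONV members, 2, and had a log2 ratio of 0 without the stromal cells, since none was then left in any library. Without these cells Ccnd2 had log2 ratios of 3.16 and 5.99 and Kcnq1ot1 of 2.22 and 3.35, while mt-Nd4 moved from 3.84 to 4.78 over CONV AsiDNA and from 2.46 to 3.31 over FLASH.

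The genes farthest below both other libraries in CONV were led by Tppp3, a tubulin-binding protein. It stood at 40.9, 434 and 482 CPM and was above 0 in 10.2% (3.40 to 22.2%), 45.6% (39.6 to 51.7%) and 52.9% (47.6 to 58.0%) of members. Lipa, the lysosomal acid lipase, stood at 5.85, 206 and 126 CPM, in 1, 126 and 101 members. The Lipa value turned on the rule, since with at least 2 of Treml4, Ace, Cd300e and Adgre4 in its place the log2 ratio was -0.96 over CONV AsiDNA and -0.29 over FLASH, in place of -3.77 and -3.10. Tgfbr1, the type I receptor for TGF-beta, stood at 5.85, 133.5 and 91.3 CPM, in 1, 101 and 99 members. Under the same marker rule its log2 ratio was -1.16 over CONV AsiDNA and -0.69 over FLASH, the latter within 2-fold. Tnfsf13, the B-cell ligand APRIL, stood at 11.7, 135 and 125 CPM, and the ATP synthase subunit Atp5j2 at 11.7, 147 and 156 CPM. Rgs3, the chaperonin subunit Cct4, the MHC class I-like H2-Q7, which may share reads with near-identical copies, transferrin (Trf) and Zmiz2 were at 5.85 to 11.7 CPM in CONV against 73.5 to 133.5 CPM in the others, each in 1 or 2 CONV members. At these levels the CONV value rests on 1 or 2 cells of 49. Under the marker rule Trf turned direction (log2 ratio 0.57 over CONV AsiDNA and 0.26 over FLASH), Tnfsf13 was at -1.13 and -1.004 and Cct4 at -1.04 and -1.16. Without the stromal cells Cct4 was at -3.65 and -3.72 and Trf at -3.12 and -3.30.

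Several listed genes of lipid handling, identity and transcription control lay far apart in CONV without leading the ranking. Cd36, the scavenger receptor for fatty acids and oxidised lipoproteins, stood at 1672, 616 and 542 CPM, and its thinned share was 65.3% (50.4 to 78.3%), 41.2% (35.3 to 47.3%) and 35.0% (30.1 to 40.1%). Id2, an inhibitor of helix-loop-helix factors, stood at 924, 245 and 297 CPM, in 71.4%, 37.9% and 45.3% of members. Tcf7l2, a Wnt-pathway factor, stood at 497, 254 and 243 CPM, and the tetraspanin Cd9 at 561, 213 and 138 CPM. Of 23 identity genes compared, Cd36 alone passed 2-fold above CONV AsiDNA, Cd36 and Tcf7l2 above FLASH, and Itgax, CD11c, below both (29.2, 111 and 90.6 CPM). A count of 1 of 23 each way against CONV AsiDNA is near the 3.91% and 4.19% of all genes. Against FLASH 2 above and 1 below stand beside 4.91% and 4.13%. Tcf7l2 stood at the 2-fold line over FLASH (log2 ratio 1.00, and 0.998 without the stromal cells). None of the 23 passed between CONV AsiDNA and FLASH (beside 1.41% of all genes). In all other cells Id2 stood at 247, 223 and 230 CPM. Of 19 transcription factors compared, Id2 passed 2-fold above CONV AsiDNA and Runx3 below (beside 3.91% and 4.19% of all genes). Against FLASH Id2, Maf and Tcf7l2 passed above and Runx3 below (beside 4.91% and 4.13%). Maf alone passed between CONV AsiDNA and FLASH, above in CONV AsiDNA (beside 0.969%).

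**Figure D4:**
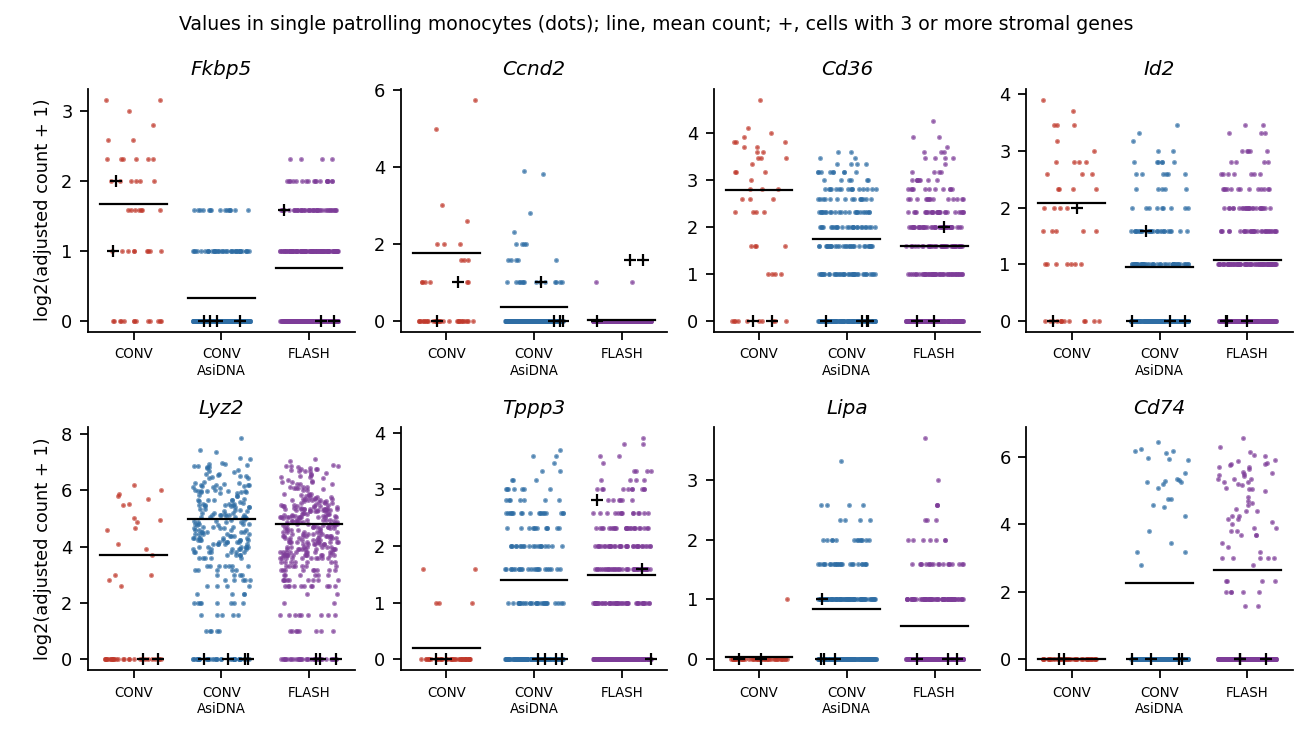
Adjusted counts of 8 genes in each patrolling monocyte on a log2(count + 1) scale, by library, with the mean count as a line and cells with 3 or more stromal genes as plus signs. Fkbp5, Ccnd2, Cd36 and Id2 have higher means in CONV, and Lyz2, Tppp3, Lipa and Cd74 lower ones, with Cd74 at 0 in each of the 49 CONV cells.

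Lyz2, the lysozyme of monocytes and macrophages, was lower in CONV members, at 3449 CPM against 8078 and 7259. It was above 0 in 38.8% (25.2 to 53.8%), 84.6% (79.7 to 88.6%) and 89.2% (85.5 to 92.1%), and thinning moved the shares little, to 38.8%, 78.7% and 83.7%. The lowest value above 0 was 5 adjusted counts in CONV members and 1 in each of the other libraries, so that a listed 0 may not mean the same in CONV, and the part of the deposited adjustment in these shares was not tested. In all other cells, a pool whose make-up differed between libraries, the direction was the reverse, with 9116 CPM in CONV against 5862 and 5930. Some lysosomal and phagocyte genes, picked after their values were seen, had values on the same side within 2-fold, namely Psap, the precursor of the saposins (1649, 2883 and 2762 CPM), Cd68 (222, 428 and 452 CPM) and Ctsb (1923, 2532 and 2552 CPM). Apoe was level, at 3239, 3240 and 3631 CPM. Of the 15 macrophage and lipid genes compared, 2 passed above and 2 below against CONV AsiDNA (beside 3.91% and 4.19% of all genes), and 3 and 3 against FLASH (beside 4.91% and 4.13%), with Cd9 and Pltp above and Lipa and Npc2 below in both.

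A minority of members also held Ly6c2, the surface marker gene of classical monocytes. It was above 0 in 2 CONV members (4.08%, 0.498 to 14.0%), 42 CONV AsiDNA members (15.4%, 11.4 to 20.3%) and 42 FLASH members (11.4%, 8.33 to 15.1%). In CONV AsiDNA and FLASH the share was 35.1% and 52.4% of members with exactly 3 rule genes, and 4.43% and 3.61% of those with all 6. In CONV AsiDNA these cells had less Treml4 (426.5 CPM, against 750 in all members), less Cd300e (97.5 against 490 CPM), more Plac8 (4740.1 against 2616 CPM) and more Lyz2 (20069 against 8078 CPM). FLASH showed the same layout, with Treml4 at 383.5 against 664 CPM, Cd300e at 138 against 513 CPM and Lyz2 at 16163.5 against 7259 CPM. Nr4a1 was nearer to the level of all members in both, at 2991.5 against 3573 CPM and 3037 against 3240 CPM. The contrast in rule genes is a description.

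Over all members Ly6c2 stood at 58.5, 229 and 125 CPM. With at least 4 rule genes its log2 ratio of CONV AsiDNA over CONV was 1.07, in place of 1.805. Against CONV AsiDNA, 4 of 10 classical genes compared were lower in CONV past 2-fold (Ms4a4c, Ly6c2, Lyz2 and Ccr2, beside 4.19% of all genes) and fibronectin, Fn1, was higher (403, 190.5 and 164 CPM, beside 3.91%). Without the stromal cells Fn1 was no longer past 2-fold over CONV AsiDNA (log2 ratio 0.83, in place of 1.04). Against FLASH 3 were higher (Fn1, Thbs1 and Mgst1, beside 4.91%) and 2 lower (Ms4a4c and Lyz2, beside 4.13%). Fn1 in CONV was above 0 in 7 members. Between CONV AsiDNA and FLASH 2 were higher in CONV AsiDNA (Mgst1 and Thbs1, beside 0.969% of all genes) and 0 lower. There 9 of the 10 had a log2 ratio above 0. The list's median log2 ratio was -0.21 against CONV AsiDNA, 0.15 against FLASH and 0.45 between CONV AsiDNA and FLASH, and it was not steady, since with at least 4 rule genes the first and second became -0.77 and -0.28.

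Cd74 and H2-Aa, of the MHC class II list, were above 0 in part of the members of 2 libraries. The 5 compared genes of this list were Cd74, H2-Aa, Ifi30, Cd86 and Ctss. Against CONV AsiDNA 3 were lower in CONV past 2-fold (Cd74, H2-Aa and Ifi30, beside 4.19% of all genes). Against FLASH 2 were lower (Cd74 and H2-Aa, beside 4.13%), and none was higher in either comparison. Between CONV AsiDNA and FLASH 1 of the 5 was lower (H2-Aa, beside 0.438%). The median log2 ratios of the comparisons with CONV were -1.05 and -0.91, and 0.088 and -0.025 with at least 2 of Treml4, Ace, Cd300e and Adgre4 as the rule. Cd74, the invariant chain, was above 0 in 26 CONV AsiDNA members (9.56%) and 70 FLASH members (19.0%), at 987 and 1409 CPM, and was listed at 0 in CONV. The lowest Cd74 value above 0 was 6 adjusted counts in CONV AsiDNA members and 2 in FLASH members, so that a listed 0 sets no limit on the share of cells that express it. H2-Aa was above 0 in 0, 2 and 26 members. The Cd74-positive FLASH members had less Cd300e (150 CPM) than the library's members as a whole (513 CPM) and more Plac8 (4381 against 2896 CPM). Both are rule genes, so this contrast is a description. Cd74 was above 0 in 44.7 to 50.2% of all other cells and stood at 23931 to 28015 CPM in interstitial macrophages.

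Interferon-stimulated, p53 and death genes showed few differences. Of 12 interferon-stimulated genes compared, Ifi27l2a was lower in CONV (181, 719 and 687 CPM), with Irf7, the master factor of the response, lower past 2-fold only against CONV AsiDNA (46.8, 121 and 99.3 CPM). Neither passed between CONV AsiDNA and FLASH. Against CONV AsiDNA 2 of the 12 were thus lower in CONV and 0 higher, beside 4.19% of all genes lower. Against FLASH 1 was lower and 0 higher, beside 4.13%. Of 9 p53 targets compared, only Cdkn1a, the cell-cycle inhibitor p21, passed 2-fold, in CONV over FLASH (491, 321 and 229 CPM), and Mdm2 was level at 64.3, 65.8 and 64.3 CPM. None of 18 survival and death genes passed in any comparison, Bcl2 standing at 129, 167 and 145 CPM. These counts stand beside the 8.1%, 9.04% and 1.41% of all genes compared that passed.

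Adhesion genes serve crawling on endothelium. Of 19 compared, 2 were lower past 2-fold in each comparison with CONV (beside 4.19% and 4.13% of all genes) and none higher. These were Itgax and Ccr2 against CONV AsiDNA, and Itgax and Selplg, the P-selectin ligand (158, 294 and 339 CPM), against FLASH. Itgb2, the beta chain of LFA-1 and Mac-1, stood at 1456, 1440 and 1332 CPM and Itga4 at 1736, 1482 and 1601 CPM. The median log2 ratios were 0.07, -0.02 and -0.05. Tgfb1 stood at 462, 549 and 495 CPM.

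**Figure D5:**
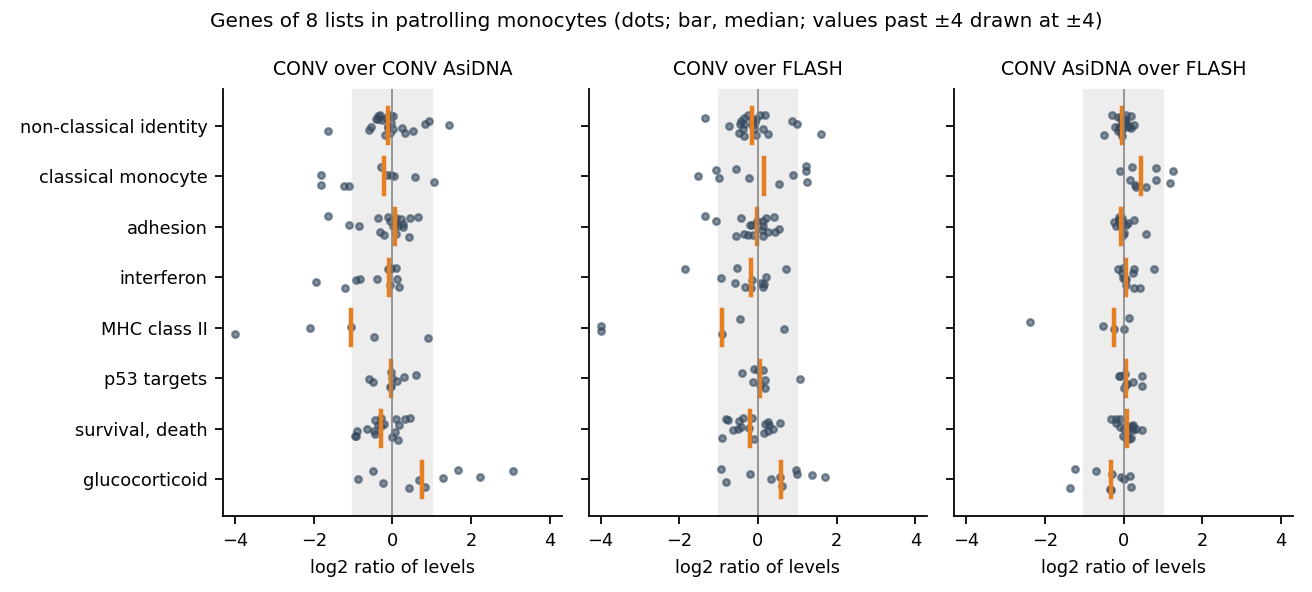
Log2 ratios of the compared genes of 8 lists in patrolling monocytes for the 3 pairs of libraries, each dot a gene and each bar the list's median, with the band within 2-fold shaded and ratios past 4 drawn at 4. Genes listed at 0 in 1 library, such as Cd74, are drawn from their level with 10 CPM added. The glucocorticoid list has medians of 0.76, 0.59 and -0.31.

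The genes that set CONV AsiDNA or FLASH members apart from both others included mitochondrial transcripts and a transcript of the ribosomal RNA locus. Mitochondrial transcripts were low in CONV AsiDNA members, mt-Nd5 standing at 433, 7.74 and 183 CPM, mt-Co1 at 193, 12.6 and 173 CPM and mt-Nd4l at 321.5, 8.70 and 102 CPM, while mt-Co2, mt-Nd1 and mt-Nd2 were listed at 0. Without the stromal cells the log2 ratio of CONV over CONV AsiDNA moved from 4.64 to 5.40 for mt-Nd5, from 3.17 to 4.41 for mt-Co1 and from 4.15 to 5.12 for mt-Nd4l. Mitochondrial genes made up 0.277%, 0.0346% and 0.193% of the members' adjusted counts and 1.495%, 1.035% and 2.27% of those of all other cells. They were also lowest in CONV AsiDNA in interstitial macrophages (0.2185%, 0.0583% and 0.801%) and cDC2 (0.0557%, 0.0189% and 0.257%). In FLASH members Gm42418, a transcript overlapping ribosomal RNA, stood at 126 CPM against 27663 and 24293, and in the other FLASH cells at 1883 against 23169.6 and 22270.3 CPM. The 126 CPM came from 1 FLASH member with 173 counts, and the log2 ratio of FLASH over CONV moved from -7.67 to -11.43 with at least 4 rule genes and to -11.46 under the marker rule. Lars2, the mitochondrial leucyl-tRNA synthetase, went with it at 509, 325 and 3.65 CPM, and AY036118 was listed at 0 in FLASH. The part of the deposited adjustment in these values was not tested.

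Apart from these, the genes ranked highest in CONV AsiDNA against both others, most of them within 2-fold of at least 1 library, were S100a10, a partner of annexin A2 (23.4, 129 and 57.7 CPM), catalase, Cat (35.1, 91.9 and 43.8 CPM), Tgoln1 (46.8, 95.7 and 25.6 CPM), Ly6c2 and the chaperone Hsp90aa1 (210.5, 383 and 220 CPM). Only S100a10 passed 2-fold over both. With at least 4 rule genes S100a10 no longer passed 2-fold over FLASH (log2 ratio 0.67, in place of 1.03), nor did it without the 5% of members with the highest totals (0.93). Under the marker rule S100a10 was at 1.25 over CONV, in place of 2.05. In all other cells Hsp90aa1 was also highest in CONV AsiDNA, at 356, 718 and 534 CPM. Ranked highest in FLASH, with Scnn1a alone past 2-fold over both, were Scnn1a, a subunit of the epithelial sodium channel (40.9, 61.9 and 169 CPM), Serpinb2, a plasminogen activator inhibitor (87.7, 108 and 211 CPM), Tubb5, Grcc10 and the linker histone Hist1h1e (64.3, 94.8 and 172 CPM). Tubb5 over CONV was at a log2 ratio of 1.73, and 0.88 under the marker rule. Scnn1a was above 0 in 6.12% (1.28 to 16.9%), 17.6% (13.3 to 22.7%) and 34.4% (29.6 to 39.5%) of members, and in 11.2 to 12.1% of all other cells of each library. It was listed at 0 in interstitial macrophages and cDC2 of all libraries. Serpinb2 stood at 0.253 to 4.54 CPM in all other cells. Prdx6, a peroxiredoxin, was low in FLASH members (93.5, 101.5 and 11.0 CPM) though not in the other FLASH cells (300, 284 and 301 CPM). Its log2 ratio of CONV over FLASH was 2.305, and 3.26 without the stromal cells.

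In CONV 8 of the 3198 compared genes were listed at 0, led by Cd74, H2-Aa, Bcap31, Npc2 and Acta2. In CONV AsiDNA 4 were (mt-Co2, mt-Nd1, mt-Nd2 and Inmt) and in FLASH 10 were, led by Mgp, AY036118, Fosb, Fmo2 and Ogn. Acta2 was at 0 in FLASH as well and above 0 in only 3 CONV AsiDNA members. The part of the smaller number of CONV members in the CONV zeros was not tested. Npc2, a lysosomal cholesterol carrier, was above 0 in 52 CONV AsiDNA and 26 FLASH members. Of 18 immediate early and dissociation genes compared, Fosb and Jun alone passed 2-fold, both of them over FLASH in CONV (beside 4.91% of all genes) and in CONV AsiDNA (beside 0.969%), and the list medians were 0.08 and 0.17. Fosb, an AP-1 gene, was above 0 in 8 CONV and 51 CONV AsiDNA members, and Jun, of the same family, stood at 158, 262 and 63.6 CPM. Mgp, Fmo2, Ogn and Inmt, all of the stromal set, were above 0 in 2 CONV members each, the 2 with stromal genes.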

How the data were processed

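Whole lungs were dissociated with enzymes and sequenced as 10x Genomics 3' v3.1 libraries, with Cell Ranger 6.0.0 and mm10 named in the submitters' processing notes. The deposited tables hold natural log values made by the authors. After the log is undone and 1 is subtracted, each value is whole within 1e-04, and it was used as an adjusted count. How it was adjusted is, in the sources used here, not given, so no count model was fitted. Members and gene lists were chosen with earlier results of these data known. Named genes were the 10 farthest above and below both others in CONV and 5 in each other library, by the smaller log2 ratio among genes above 0 in all libraries, plus those listed at 0 and listed genes. Of the listed genes, 1 was not in the table. Intervals are exact (Clopper-Pearson, 95%). No doublet caller was run, and the 5% of members with the highest totals were left out as an alternative. The ranking was tested on simulated data drawn from summed levels. These held no spread between cells, so they do not speak to values that rest on few cells. Python 3.11.15, numpy 2.4.6 and scipy 1.17.1 were used. Gene positions came from GENCODE for GRCm38. Left unused were 4 tables whose rows are genes of another organism: 12 columns of per-sample values matched no sample, and the rest hold fold changes and p-values of the authors' own comparisons. Some items are not reported here.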

Additional observations from a re-analysis of the deposited data

Results flagged for a closer look

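For 5 of the genes ranked farthest from both other libraries in CONV the direction in CONV patrolling monocytes was the opposite of that in all other cells of the libraries, by at least 0.5 on the log2 scale against both other libraries. The difference was not tested, since each library is 1 mouse. All other cells are a pool of cell types whose make-up differed between libraries. The part of this make-up, and of the deposited adjustment, in the opposite directions was not tested. Ccnd2 had log2 ratios of 3.10 over CONV AsiDNA and 5.61 over FLASH in members, and -0.67 and -0.73 in all other cells. With at least 4 rule genes the member values were 1.59 and 4.09. Gsn had 3.02 and 4.93 in members, from 2 cells with stromal genes, and -0.55 and -0.76 in other cells. Without the members with stromal genes the Gsn member values were -0.14 and -0.10, no longer opposite to other cells. Without the 5% of members with the highest totals they were -2.24 and -0.11. Lipa had -3.77 and -3.10 in members and 1.44 and 1.57 in other cells. With at least 2 of Treml4, Ace, Cd300e and Adgre4 as the rule the member values were -0.96 and -0.29, neither past 2-fold. The value over FLASH was then short of the 0.5 used here, so Lipa would not be flagged under that rule. Tgfbr1 had -3.18 and -2.68 in members and 0.59 and 0.61 in other cells. Under that rule Tgfbr1 had -1.16 and -0.69 in members. Tnfsf13 had -2.75 and -2.64 in members and 0.95 and 1.17 in other cells, and under that rule -1.13 and -1.004 in members. Of the listed genes above 0 in all libraries and past 2-fold against both in members, Lyz2 had the same layout (-1.23 and -1.07 in members, 0.64 and 0.62 in other cells), as did Itgax (-1.63 and -1.36, 0.62 and 0.75). Cd68, Psap, Ccl6, Hgf and Sgk1 had it while within 2-fold against at least 1 library, and genes listed at 0 in a library were not counted.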

How the results depend on the processing

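Each value rests on 1 mouse per condition, and the CONV values on 49 cells, where 1 cell with 1 adjusted count is 5.85 CPM. No paired analysis was possible because each condition has 1 library. The order of the shares held under each form of the rule tried. With at least 2 rule genes the shares were 1.29%, 5.01% and 6.81% in CONV, CONV AsiDNA and FLASH, after thinning 0.487%, 2.68% and 4.32%, and with at least 4 rule genes the CONV AsiDNA share was 3.37%. The number of genes past 2-fold followed the minimum level. The values that follow are for CONV against CONV AsiDNA, CONV against FLASH and CONV AsiDNA against FLASH. With 25 CPM it was 600, 636 and 88 of 4875 genes (12.31%, 13.05% and 1.805%). With 100 CPM it was 86, 102 and 19 of 1728 (4.977%, 5.903% and 1.1%). With no minimum it was 1788, 1977 and 286 of 13527 (13.22%, 14.62% and 2.114%). Of the values of the genes ranked farthest from both other libraries under the alternatives, with 2 comparisons a gene and Gsn, Ccnd2, mt-Nd4 and Cxcl2 entering once for each of the 2 libraries that ranked them, 527 kept their direction and their side of 2-fold, 16 no longer passed 2-fold, 5 newly passed and 12 reversed, leaving out the rule with no C1q gene, which chose the same cells. Listed genes were recomputed as medians of their lists. Without the 5% of members with the highest totals, Gsn had a log2 ratio of CONV over CONV AsiDNA of -2.24 and over FLASH of -0.11 (FLASH over CONV 0.11), Timp3 -0.95 and -0.63, and Igfbp7 -1.885 and -1.355. Without the members with stromal genes, an alternative chosen after seeing the data, Gsn had -0.14 and -0.10 (FLASH over CONV 0.10). With at least 2 of Treml4, Ace, Cd300e and Adgre4, Trf had 0.57 and 0.26, and the median of the MHC class II list over CONV AsiDNA was 0.088 in place of -1.05. The cause of the changes under the marker rule was not tested.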
